A study of Mus musculus with 9 samples.

Results

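The subject was 10 genes of innate immune sensing in mouse lung: the receptors Tlr2, Tlr3, Tlr4, Tlr5, Tlr7 and Tlr13, the LPS co-receptors Cd14 and Ly96, the adaptor Myd88, and Irak3, an inhibitor of the pathway. They were given as a list of names, with earlier results of these data known, and all 10 were present among the 27203 gene IDs of the expression table. All 10 also passed the filter on low values used for testing, a mean of at least 0.1 FPKM (reads scaled to transcript length and library size) over the 9 libraries, which left 19378 genes. The level of a gene is the sum of its transcript rows, and the 10 genes had 26 rows of 60108.

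Whole lungs of male C57BL/6 mice, an inbred laboratory strain, aged 6 to 8 weeks, had been taken for total RNA sequencing, with 3 mice and so 3 libraries in each of 3 groups. In the VILI (ventilator-induced lung injury) groups, mice had been ventilated mechanically for 4 hours at an injurious tidal volume of 20 ml/kg, and were killed at the end of ventilation (VILI 0 hours) or 6 hours later (VILI 6 hours). All mice had been anaesthetised with ketamine and xylazine and intubated. Control mice were not ventilated, while ventilated mice received the muscle relaxant pancuronium, and the time at which these control mice were killed was not given in the sources used here. No genotype or microbial agent differed between the groups as labelled, and none of these groups was ventilated at a lower volume, so that stretch, ventilation as such and the drugs given with it cannot be told apart.

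Toll-like receptors are membrane proteins that recognise microbial molecules and, by many reports, molecules released from injured tissue. TLR2, TLR4 and TLR5 act mainly at the cell surface, on lipoproteins, lipopolysaccharide (LPS) and flagellin, while TLR3, TLR7 and TLR13 act in endosomes, on double-stranded RNA, single-stranded RNA and bacterial ribosomal RNA. MyD88 carries the signal of all of these but TLR3 to IRAK kinases and NF-kappaB, and IRAK-M, the product of Irak3, restrains it; macrophages, neutrophils and epithelium of the lung all use parts of the system.

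Sequences before the start sites were available for 6 of the 10 genes in the RefSeq promoter table (build GRCm38.p6), which holds 32851 windows. Tlr4, Tlr7 and Ly96 were not matched, and Cd14 was not examined. Windows of the 250 bases before each start site were searched on both strands for the NF-kappaB motif (by name), AP-1 (TGANTCA), PU.1 (GAGGAA), C/EBP (TTNNGCAA) and the interferon-stimulated response element, ISRE (GAAA, any 2 bases, GAAA). The stretches of 4 genes are shown because Tlr13, Myd88 and Irak3 had the lowest adjusted p-values at VILI 6 hours and Tlr2 held the most matches. This count takes a match that reads the same on both strands once for each strand. Each runs 5′ to 3′ on the strand of its gene and stops before the first exon base of GENCODE M21, with matches in capitals. The Myd88 and Irak3 stretches lie inside the annotated genes, downstream of their farthest annotated starts and outside exons. That of Tlr13 lies at chrX:106143025-106143203 on the plus strand, and those of Myd88 (chr9:119340042-119340268), Irak3 (chr10:120201660-120201847) and Tlr2 (chr3:83841768-83841858) on the minus strand.
Tlr13: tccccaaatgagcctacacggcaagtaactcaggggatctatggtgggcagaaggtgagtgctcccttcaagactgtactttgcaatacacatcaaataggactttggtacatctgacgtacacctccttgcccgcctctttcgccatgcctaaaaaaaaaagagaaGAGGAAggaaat
Myd88: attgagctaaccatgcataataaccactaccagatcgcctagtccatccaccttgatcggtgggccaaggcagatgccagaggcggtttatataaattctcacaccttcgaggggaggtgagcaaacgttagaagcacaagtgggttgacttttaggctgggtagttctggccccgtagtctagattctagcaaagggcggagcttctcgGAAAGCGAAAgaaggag
Irak3: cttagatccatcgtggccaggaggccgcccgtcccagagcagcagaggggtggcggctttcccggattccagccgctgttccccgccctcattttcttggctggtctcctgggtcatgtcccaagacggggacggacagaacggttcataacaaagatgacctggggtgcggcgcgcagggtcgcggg
Tlr2: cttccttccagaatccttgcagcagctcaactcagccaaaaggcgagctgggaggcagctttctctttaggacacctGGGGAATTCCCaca

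The capitals in Tlr13 are a PU.1 match, a motif that 23.3% of all windows held. Those in Myd88 are an ISRE match (GAAAGCGAAA, 40 to 31 bases before the RefSeq start), held by 2.98% of windows. The run in Tlr2 covers 3 overlapping NF-kappaB matches, 2 on the strand of the gene and 1 on the other strand, and this motif was found in 7.25% of windows. The match on the other strand lies on the same bases as 1 of the first 2, since GGGAATTCCC reads the same on both strands. Neither of the 2 Irak3 windows, of which the more downstream one is shown, held any of the 5 motifs, nor did the Tlr5 window. The Tlr3 window, which begins inside an exon of a GENCODE transcript and is not printed, held an NF-kappaB match and a C/EBP match (9.56% of windows), while AP-1 (6.75%) was found in none of the 6 genes. These are matches of letters in a short window and carry no measurement of binding.

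All values below are FPKM as deposited, so levels may be compared between genes per length, but the FPKM table holds no read counts, and the read totals that the study lists for each library were not used here. Fold changes are differences of log2(FPKM + 0.1), tested with limma over all 19378 genes in 1 fit of the 9 libraries. The added 0.1 understates the change of low genes, the more so the nearer their levels are to 0. A gene is said to pass the unadjusted threshold when its P was under 0.05, the limit the study used, and "rose" or "fell" is kept for an adjusted p under 0.05 over all genes tested. For a single gene, 3 against 3 libraries cannot give a two-sided exact permutation p below 0.1. The spread is that between mice of a group. Marker genes of lung (Sftpc, Ager, Scgb1a1, Cdh5 and Col1a1) were present in every library, with summed levels of 33124 to 49782 FPKM. The 3 VILI 6 hours libraries differed among themselves: the summed level of 10 neutrophil markers was 482, 1019 and 2101 FPKM in replicates 1, 2 and 3, against 51.7 to 63.1 in control and 566 to 1019 at VILI 0 hours.

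In control lung, all members were expressed. Myd88 (14.5 ± 0.18 FPKM; mean ± SD, n = 3) and Cd14 (14.3 ± 0.48) were highest, followed by Tlr3 (11.8 ± 1.7) and Tlr4 (11.6 ± 1.6). Tlr2 (6.09 ± 0.60), Tlr5 (5.05 ± 0.30), Ly96 (4.34 ± 0.57), Irak3 (3.60 ± 0.24), Tlr13 (3.37 ± 0.30) and Tlr7 (2.33 ± 0.75) were lower. The libraries overlapped between neighbours in this order for Myd88 and Cd14, for Tlr3 and Tlr4, for Ly96 and Irak3, and for Irak3 and Tlr13. At VILI 0 hours only Tlr3 and Irak3 were separated among neighbouring genes, and at VILI 6 hours, with Cd14 first at 64.8 ± 75.5 FPKM and Tlr5 last at 4.0 ± 1.9, every neighbour overlapped the next.

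Of the 10 members, 3 were higher at the unadjusted threshold at VILI 0 hours than in control (Tlr13, Myd88 and Tlr4), where 6.81% of all genes tested were higher, and none was lower, where 9.35% were. None passed the adjusted threshold, which 0.284% of genes did. At VILI 6 hours, 5 members were higher than in control (Tlr13, Tlr7, Cd14, Myd88 and Irak3), against a background of 8.17%, and none was lower, against 12.2%. Tlr13 alone passed the adjusted threshold, as 0.702% of all genes did. The median log2 fold change of the members was 0.33 at VILI 0 hours and 1.04 at VILI 6 hours, beside -0.07 and -0.09 over all genes. Every ventilated library lay above every control library for 4 members at VILI 0 hours (Tlr7, Tlr13, Myd88 and Irak3; 12.0% of all genes) and for 6 at VILI 6 hours (these and Tlr2 and Cd14; 9.64%). For 1 member, Tlr5 at VILI 0 hours, every ventilated library lay below the lowest control library, against 21.6% of genes, and for 0 members at VILI 6 hours, against 15.0%. Both comparisons use the same 3 control libraries, so their values are not independent of each other.

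**Figure D1:**
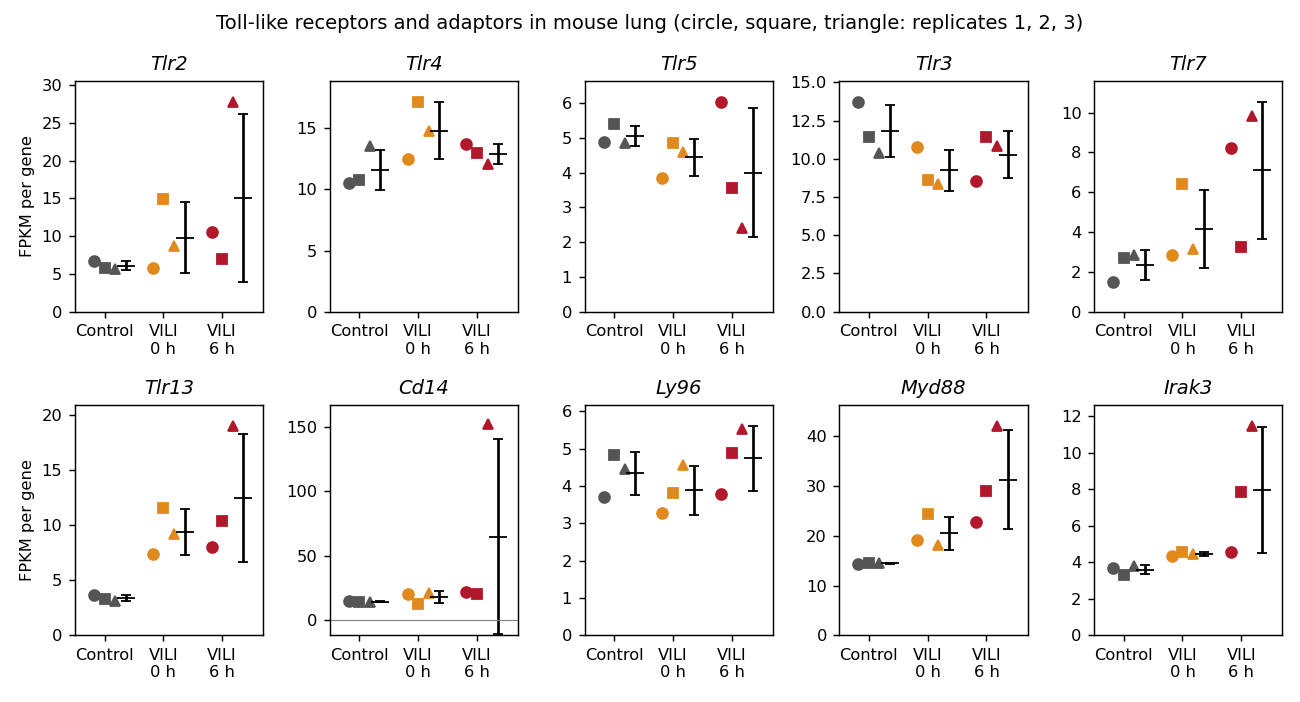
Level of each gene in FPKM (y axis, linear, a separate scale for each gene) in the 3 control, 3 VILI 0 hours and 3 VILI 6 hours libraries; symbols are replicates 1 to 3 and the black line is the mean ± SD. Tlr13 and Myd88 lay above control in all 6 ventilated libraries, whereas the high mean of Cd14 at VILI 6 hours came from replicate 3 at 152 FPKM.

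Among the surface receptors, Tlr2 (chr3:83836272-83841767, minus strand; coordinates of genes here and below are GRCm38, GENCODE M21), the receptor for bacterial lipoproteins, was measured at 6.78, 5.82 and 5.68 FPKM in control, 5.80, 14.9 and 8.75 at VILI 0 hours, and 10.5, 6.93 and 27.8 at VILI 6 hours. The 3 control mice were close together and the ventilated mice scattered widely, with VILI 0 hours replicate 1 inside the control range and all VILI 6 hours libraries above it. The log2 difference from control was 0.58 ± 0.47 (SE) at VILI 0 hours (adjusted p = 0.584) and 1.05 ± 0.47 at VILI 6 hours (adjusted p = 0.250), neither past the unadjusted threshold. Leaving out VILI 6 hours replicate 3 gave 0.49 for the later comparison (adjusted p = 0.556), while leaving out VILI 6 hours replicate 2 gave 1.48 and took it past the unadjusted threshold (adjusted p = 0.228). It passed with an unmoved difference of 1.05 also when VILI 0 hours replicate 1 (adjusted p = 0.244) or 2 (adjusted p = 0.251) was left out.

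Tlr4 (chr4:66827584-66930284, plus strand), the LPS receptor, was measured at 10.6, 10.8 and 13.5 FPKM in control, 12.5, 17.1 and 14.7 at VILI 0 hours, and 13.7, 12.96 and 12.1 at VILI 6 hours. The groups overlapped at both times, since control replicate 3 reached the ventilated range. The difference was 0.34 ± 0.15 at VILI 0 hours, past the unadjusted threshold only (adjusted p = 0.285), and 0.16 ± 0.15 at VILI 6 hours (adjusted p = 0.549), with a 95% interval of -0.17 to 0.48. The call at VILI 0 hours was lost when control replicate 1 or 2, VILI 0 hours replicate 2 or 3, or VILI 6 hours replicate 2 was left out, with differences of 0.28, 0.29, 0.23, 0.34 and 0.34 in that order.

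Tlr5 (chr1:182954788-182976044, plus strand), the flagellin receptor, was measured at 4.89, 5.39 and 4.86 FPKM in control, 3.86, 4.86 and 4.59 at VILI 0 hours, and 6.03, 3.55 and 2.41 at VILI 6 hours. VILI 6 hours replicate 1 was the highest of all 9 libraries and replicate 3 the lowest, so the later group spanned the others, and VILI 0 hours replicate 2 lay only just under the lowest control library. The difference from control was -0.19 ± 0.28 at VILI 0 hours (adjusted p = 0.779) and -0.42 ± 0.28 at VILI 6 hours (adjusted p = 0.398). Leaving out VILI 6 hours replicate 1, where 23.3% of genes passed the adjusted threshold, gave -0.76 (adjusted p = 0.0214), and leaving out replicate 3 gave -0.12.

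Among the endosomal receptors, Tlr3 (chr8:45395665-45411080, minus strand), which recognises double-stranded RNA and signals through TRIF in place of MyD88, was measured at 13.7, 11.4 and 10.4 FPKM in control, 10.8, 8.59 and 8.35 at VILI 0 hours, and 8.55, 11.4 and 10.8 at VILI 6 hours. Only VILI 0 hours replicate 1 and VILI 6 hours replicates 2 and 3 lay within the control range. The difference was -0.35 ± 0.16 at VILI 0 hours (adjusted p = 0.323) and -0.20 ± 0.16 at VILI 6 hours (adjusted p = 0.485). The first of these passed the unadjusted threshold when control replicate 3 (-0.44), VILI 0 hours replicate 1 (-0.47) or VILI 6 hours replicate 1 (-0.35) was left out.

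Tlr7 (chrX:167304929-167330558, minus strand), the receptor for single-stranded RNA, was measured at 1.47, 2.68 and 2.84 FPKM in control, 2.86, 6.43 and 3.17 at VILI 0 hours, and 8.24, 3.23 and 9.82 at VILI 6 hours. All 6 ventilated libraries lay above control, VILI 0 hours replicate 1 only just. The difference was 0.77 ± 0.45 at VILI 0 hours (adjusted p = 0.443) and 1.47 ± 0.45 at VILI 6 hours, past the unadjusted threshold (adjusted p = 0.137), with a 95% interval of 0.46 to 2.49. Leaving out a library moved the later difference between 1.17 and 1.96 with the call kept each time.

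Tlr13 (chrX:106143204-106160493, plus strand), which detects bacterial ribosomal RNA, was the member that stood farthest from control relative to its SE at both times. It was measured at 3.70, 3.29 and 3.13 FPKM in control, 7.36, 11.6 and 9.16 at VILI 0 hours, and 8.03, 10.3 and 19.0 at VILI 6 hours, so that the lowest ventilated library had 7.36 FPKM and the highest control library 3.70. The difference was 1.42 ± 0.29 at VILI 0 hours, 2.68-fold with a 95% interval of 1.71 to 4.21, past the unadjusted threshold (adjusted p = 0.0743). At VILI 6 hours Tlr13 rose by 1.76 ± 0.29 on the log2 scale, 3.39-fold with an interval of 2.16 to 5.31 (adjusted p = 0.0325). The call at the unadjusted threshold held at both times whichever library was left out, with differences of 1.26 to 1.58 and 1.41 to 2.03. The adjusted p at VILI 6 hours ran from 0.00193 without VILI 6 hours replicate 1 to 0.160 without control replicate 3. It was 0.120 and 0.139 without control replicates 1 and 2, 0.0579 without VILI 0 hours replicate 3, and 0.0885 and 0.0511 without VILI 6 hours replicates 2 and 3. At VILI 0 hours the adjusted p was 0.0112 without VILI 6 hours replicate 1 and 0.0265 without VILI 6 hours replicate 3, through the shared estimate of spread. Leaving out a library moved the calls of all genes as well. Without VILI 6 hours replicate 1, 23.3% of genes passed the adjusted threshold at VILI 6 hours, against 0.702% with all libraries, and 6.93% passed it at VILI 0 hours, against 0.284%. Without VILI 6 hours replicate 3, 1.27% of genes passed it at VILI 0 hours.

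In bulk samples such as these, more cells that express a gene and more RNA per cell cannot be told apart. Neutrophil markers moved with Tlr13: 8 of 10 were higher at the unadjusted threshold at VILI 0 hours and 9 of 10 at VILI 6 hours (5 and 7 after adjustment), with median log2 differences of 3.53 and 4.07. The summed level of 6 monocyte markers was 75.6 to 81.4 FPKM in control, 56.4 to 174 at VILI 0 hours and 121 to 204 at VILI 6 hours, with 0 and 3 of 6 higher. That of 10 alveolar macrophage markers was 220 to 290, 358 to 439 and 250 to 630 FPKM, with 6 and 2 of 10 higher, and that of 5 interstitial macrophage markers was 52.8 to 55.4, 55.3 to 62.6 and 61.7 to 95.9, with 0 and 2 of 5 higher. Dendritic cell markers were lower for 1 and 2 of 6 genes, B cell markers for 1 and 3 of 4, and endothelial markers for 1 and 2 of 6. No marker of these lists was higher at the threshold. The difference was above 0 for 2 and 0 of the dendritic cell markers, 0 and 0 of the B cell markers, and 3 and 3 of the endothelial markers. No T cell or cardiac muscle marker passed against control, and of 5 alveolar type 2 markers 1 was lower at VILI 6 hours. No marker was at 0 in all libraries of a group, control included. Among all genes tested, 6.81% were higher and 9.35% lower at VILI 0 hours, and 8.17% and 12.2% at VILI 6 hours, at the unadjusted threshold. The adjusted threshold was passed by 0.284% and 0.702%. The part of these cells in the level of any member was not tested.

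**Figure D2:**
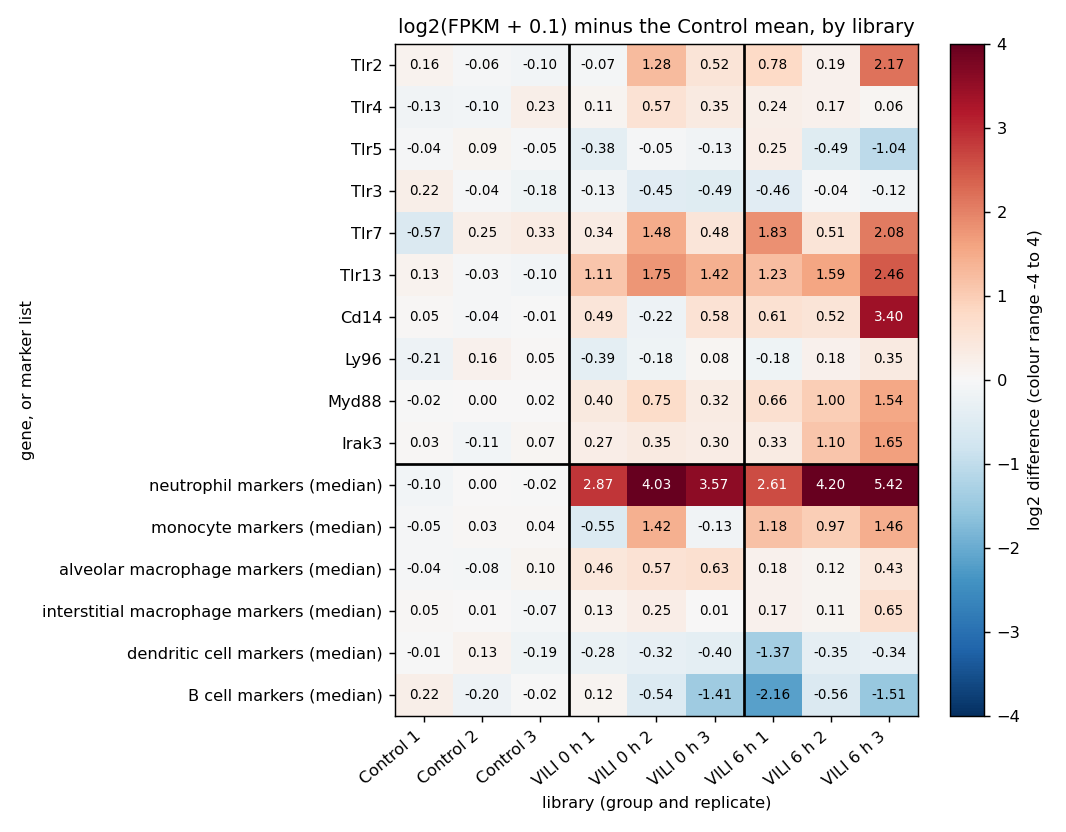
Log2(FPKM + 0.1) minus the control mean in each of the 9 libraries (columns) for the 10 genes (above the line) and, below it, the median of each marker list; red is higher and blue lower than control, with the value printed in each cell. The neutrophil row reached 2.61 to 5.42 in the ventilated libraries, and VILI 6 hours replicate 3 held the highest value of Tlr2, Tlr7, Tlr13, Cd14, Ly96, Myd88 and Irak3.

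The co-receptors of TLR4 in this set were Cd14 and Ly96, and the difference between their changes was not tested. Cd14 (chromosome 18, minus strand), which hands LPS to TLR4, was measured at 14.9, 13.9 and 14.2 FPKM in control, 20.1, 12.3 and 21.4 at VILI 0 hours, and 21.9, 20.6 and 152 at VILI 6 hours. VILI 0 hours replicate 2 lay below control, and VILI 6 hours replicate 3 stood far above every other library. The difference was 0.28 ± 0.64 at VILI 0 hours (adjusted p = 0.866) and 1.51 ± 0.64 at VILI 6 hours, past the unadjusted threshold (adjusted p = 0.228). Without VILI 6 hours replicate 3 the later difference was 0.57 (adjusted p = 0.282), still past that threshold, and leaving out replicate 2 of that group raised it to 2.004. The call was lost without control replicate 1 (1.54), 2 (1.49) or 3 (1.503) and, through the spread shared by the groups, without VILI 0 hours replicate 1 or 3 (both 1.51).

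Ly96 (chr1:16688051-16709611, plus strand) encodes MD-2, the subunit of the TLR4 complex that binds LPS itself. It was measured at 3.72, 4.83 and 4.46 FPKM in control, 3.27, 3.81 and 4.58 at VILI 0 hours, and 3.80, 4.90 and 5.53 at VILI 6 hours, with overlap between all groups. The difference was -0.16 ± 0.19 at VILI 0 hours (adjusted p = 0.720) and 0.12 ± 0.19 at VILI 6 hours (adjusted p = 0.744), the latter with a 95% interval of -0.31 to 0.55. The ratio of Cd14 to Tlr4 was 1.41, 1.29 and 1.05 in control, 1.61, 0.718 and 1.45 at VILI 0 hours, and 1.60, 1.59 and 12.6 at VILI 6 hours. That of Ly96 to Tlr4 ranged over 0.330 to 0.448, 0.222 to 0.310 and 0.278 to 0.459, with the first 2 ranges apart and the third across both. That of Tlr13 to Tlr4 was 0.232 to 0.351 in control, 0.590 to 0.674 at VILI 0 hours and 0.587 to 1.58 at VILI 6 hours, without overlap with control.

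Myd88 (chr9:119335934-119341411, minus strand), the adaptor shared by nearly all of these receptors and by the interleukin 1 receptor family, was measured at 14.3, 14.5 and 14.7 FPKM in control, 19.2, 24.3 and 18.1 at VILI 0 hours, and 22.9, 29.0 and 42.2 at VILI 6 hours. The control libraries were nearly equal, and every ventilated library lay above them. The difference was 0.49 ± 0.20 at VILI 0 hours, past the unadjusted threshold (adjusted p = 0.275), and 1.06 ± 0.20 at VILI 6 hours, 2.09-fold with a 95% interval of 1.52 to 2.87 and just short of the adjusted threshold (adjusted p = 0.0564). The later call held whichever library was left out, between 0.83 and 1.27, with an adjusted p of 0.00235 without VILI 6 hours replicate 1, where 23.3% of genes passed the adjusted threshold. The call at VILI 0 hours was lost without control replicate 1 (0.48), 2 (0.49) or 3 (0.50), VILI 0 hours replicate 1 (0.53) or 2 (0.36), or VILI 6 hours replicate 2 (0.49).

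Irak3 (chr10:120141648-120202130, minus strand), whose product IRAK-M damps signalling downstream of MyD88 in macrophages, was measured at 3.68, 3.33 and 3.78 FPKM in control, 4.37, 4.59 and 4.46 at VILI 0 hours, and 4.55, 7.83 and 11.5 at VILI 6 hours. All ventilated libraries lay above control, and the VILI 0 hours libraries were the most uniform. The difference was 0.31 ± 0.27 at VILI 0 hours (adjusted p = 0.620) and 1.03 ± 0.27 at VILI 6 hours, 2.04-fold with an interval of 1.33 to 3.13, past the unadjusted threshold (adjusted p = 0.108). The later call held whichever library was left out, between 0.72 and 1.38, and without VILI 6 hours replicate 1, where 23.3% of genes passed the adjusted threshold, the adjusted p was 0.00146. The ratio of Irak3 to Myd88 was 0.230 to 0.258 in control, 0.189 to 0.246 at VILI 0 hours and 0.199 to 0.272 at VILI 6 hours, with overlap between all groups.

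**Figure D3:**
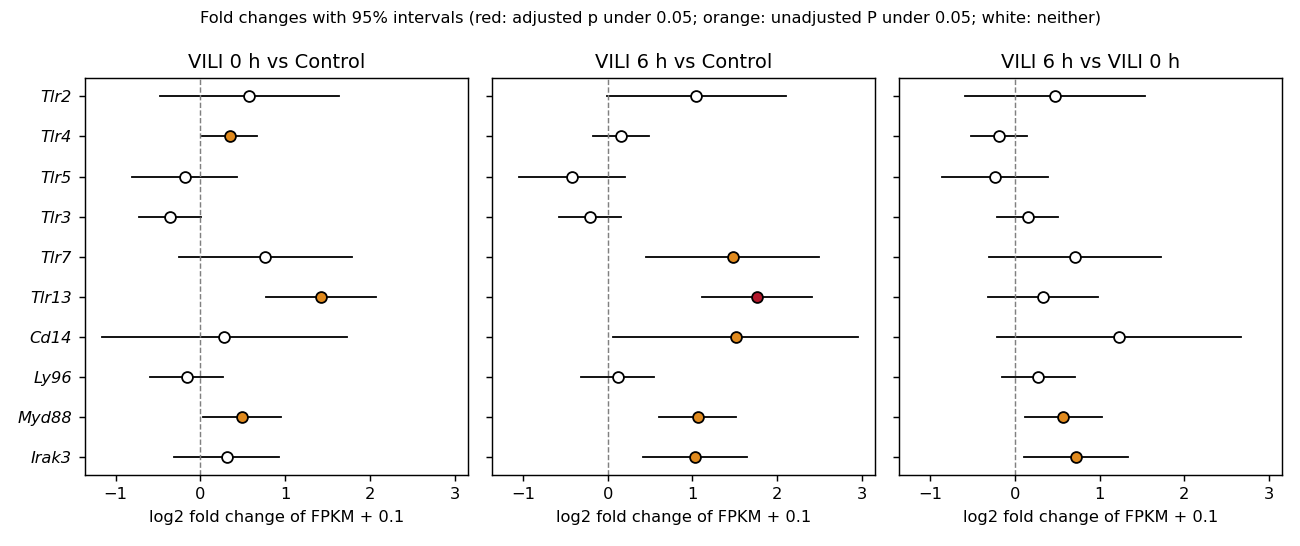
Log2 fold change of FPKM + 0.1 (x axis) with its 95% interval for each gene in the 3 comparisons; red marks an adjusted p under 0.05, orange an unadjusted P under 0.05 and white neither. Tlr13 at VILI 6 hours against control, at 1.76, is the only red point.

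Between the ventilated groups, 2 of 10 members were higher at VILI 6 hours than at VILI 0 hours at the unadjusted threshold, where 5.06% of all genes were higher, and none was lower, where 4.94% were. These were Myd88, by 0.57 ± 0.20 (adjusted p = 0.412), and Irak3, by 0.72 ± 0.27 (adjusted p = 0.438). In this comparison 0 of 19378 genes (0%) passed the adjusted threshold in limma, while 981 were higher and 957 lower at the unadjusted one. No member had all libraries of one group above or below the other, against 6.25% and 6.28% of genes. Cd14 differed by 1.23 ± 0.64 (adjusted p = 0.561), Tlr7 by 0.71 ± 0.45, Tlr2 by 0.47 ± 0.47, Tlr13 by 0.34 ± 0.29 and Ly96 by 0.28 ± 0.19. Tlr3 (0.15 ± 0.16), Tlr4 (-0.19 ± 0.15) and Tlr5 (-0.24 ± 0.28) differed least. The call of Myd88 was lost without VILI 0 hours replicate 1 (0.53) or 3 (0.49) or VILI 6 hours replicate 3 (0.34). That of Irak3 was lost without VILI 0 hours replicate 1 (0.70), 2 (0.74) or 3 (0.72) or VILI 6 hours replicate 2 (0.68) or 3 (0.41). Without VILI 6 hours replicate 1, calls rose across all genes, with 8.55% higher and 13.9% lower at the unadjusted threshold and 1.84% past the adjusted one, and 6 members passed the unadjusted threshold: Myd88 (0.78), Irak3 (1.07, adjusted p = 0.0238), Tlr13 (0.60), Cd14 (1.68), Ly96 (0.43) and, lower, Tlr5 (-0.58). Cd14 (1.72) and Tlr7 (1.19) also passed without VILI 6 hours replicate 2, and Tlr7 (1.07) without VILI 0 hours replicate 2.

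The deposited values are per transcript, and 19 rows of the 10 genes had a mean of at least 0.1 FPKM. Of these, 1 was higher and 1 lower at VILI 0 hours at the unadjusted threshold (11.0% of all 37300 rows tested passed in either direction), 5 were higher and 1 lower at VILI 6 hours (13.2%), and 4 were higher and 0 lower between the ventilated groups (7.40%). None of the 19 passed the adjusted threshold in any comparison with all libraries, while 4 passed it at VILI 6 hours without VILI 6 hours replicate 1, where 5.60% of all rows did. Tlr2, Tlr13 and Cd14 had a single row each, and Tlr4, Ly96, Myd88 and Irak3 had 2 each, of which 1 held 95.5% to 100% of the level in each library.

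Tlr3, Tlr5 and Tlr7 were divided over several rows. Tlr3 had 7 rows, 5 of them tested and 1 listed at 0 in every library. Its row 5 had control values of 2.91, 0.641 and 0.416 FPKM, then 0.00756, 0 and 0.00974 at VILI 0 hours, and 0.459, 0 and 4.22 at VILI 6 hours, and was the lower row at VILI 0 hours (-3.31 ± 1.2, adjusted p = 0.386). Row 1 of Tlr3 held 61.1% of the gene in VILI 6 hours replicate 2 and 0.575% in replicate 3, so that the division over rows varied more between mice than the summed level did. Tlr5 had 3 rows, and row 3 was measured at 1.62, 0.875 and 0.852 FPKM in control and 1.06, 0.207 and 0.143 at VILI 6 hours (-1.40 ± 0.59, adjusted p = 0.365), with replicate 1 in the control range for this row. Row 1 of Tlr5, its main row, was -0.29 ± 0.34 in the same comparison (adjusted p = 0.726). Of the 5 rows of Tlr7, 4 were tested, and rows 1 (1.97 ± 0.78, adjusted p = 0.339) and 2 (1.03 ± 0.35, adjusted p = 0.297) were higher at VILI 6 hours. Row 5 of Tlr7, the most abundant on average, was measured at 0.390, 0.658 and 1.89 FPKM in control and 3.41, 0.525 and 6.37 at VILI 6 hours (1.42 ± 0.94, adjusted p = 0.537).

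**Figure D4:**
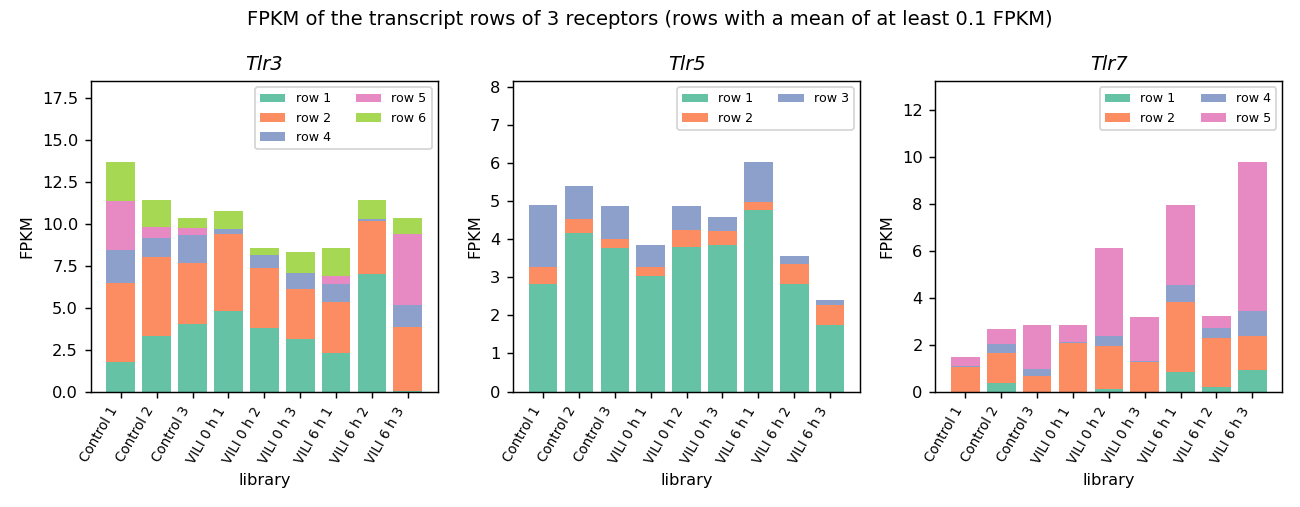
FPKM of the transcript rows (colours, stacked) of Tlr3, Tlr5 and Tlr7 in each of the 9 libraries, for rows with a mean of at least 0.1 FPKM. Row 1 of Tlr3 is nearly missing in VILI 6 hours replicate 3 at 0.0623 FPKM, where row 5 is at its highest, 4.22 FPKM.

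The other genes of the pathway were read from 7 lists with 86 genes. Among all genes tested, 6.81% were higher and 9.35% lower at VILI 0 hours, and 8.17% and 12.2% at VILI 6 hours, at the unadjusted threshold. Between the ventilated groups these shares were 5.06% and 4.94%. No list was tested as a set. Of the 6 remaining Toll-like receptors, 2 were higher and 2 lower at each time against control and 0 between the ventilated groups. Tlr8, an endosomal receptor, was measured at 3.92, 3.72 and 3.47 FPKM in control, 4.64, 6.06 and 6.90 at VILI 0 hours, and 6.34, 5.22 and 5.42 at VILI 6 hours, above control in all 6 ventilated libraries. Its difference was 0.63 and then 0.60 (adjusted p = 0.117 and 0.116). Tlr6, a partner of TLR2, differed by 0.70 and 0.84 (adjusted p = 0.289 and 0.175), and Tlr9, the receptor for unmethylated CpG DNA, by -0.68 at VILI 0 hours (adjusted p = 0.259). Tlr12 (-1.15 and -0.99) and Tlr11 (-1.38 at VILI 6 hours), both with a mean over all 9 libraries under 1 FPKM and named after their values were seen, were the others that passed.

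Of 11 receptor helpers and chaperones, 2 were higher and 2 lower at each time against control. Lbp, which carries LPS to CD14, was measured at 15.7, 16.8 and 15.2 FPKM in control, 22.7, 22.4 and 21.7 at VILI 0 hours, and 17.1, 30.7 and 43.8 at VILI 6 hours (0.83 at VILI 6 hours, adjusted p = 0.149). Tril, a TLR3 and TLR4 accessory protein, was lower (-1.0 and -1.24; adjusted p = 0.141 and 0.0774), and Cd180, a TLR4-like protein of B cells, too (-1.28 and -0.91; adjusted p = 0.143 and 0.215). Cd36, a scavenger receptor that assists TLR2, was higher at VILI 0 hours by 0.65 (adjusted p = 0.114), and the 1 gene of the list that passed between the ventilated groups, lower (-0.66, adjusted p = 0.280). Of 21 adaptors and kinases, 0 passed at VILI 0 hours and 3 were higher at VILI 6 hours: Tirap, the adaptor that brings MyD88 to TLR2 and TLR4 (0.65, adjusted p = 0.129), and the kinases Ripk1 (0.49, adjusted p = 0.156) and Irak2 (0.48, adjusted p = 0.223). The median of this list was 0.03 at VILI 0 hours and 0.14 at VILI 6 hours.

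Of 5 transcription factors, 0 passed at VILI 0 hours. Rela, a subunit of NF-kappaB, was higher at VILI 6 hours than in control (0.31, adjusted p = 0.195) and than at VILI 0 hours (0.34, adjusted p = 0.407), and Nfkb1 than at VILI 0 hours (0.29, adjusted p = 0.458). Of 16 other inhibitors of the pathway, 3 were higher and 1 lower at VILI 0 hours, 5 were higher at VILI 6 hours, and 2 were higher between the ventilated groups. Cd300lf, an inhibitory receptor of myeloid cells, was measured at 4.09, 3.82 and 4.32 FPKM in control, 13.8, 17.3 and 23.7 at VILI 0 hours, and 8.48, 26.6 and 35.6 at VILI 6 hours (2.1 and 2.27, adjusted p = 0.0766 and 0.0587). Nfkbia, the NF-kappaB inhibitor, differed by 1.44 and 1.74 (adjusted p = 0.238 and 0.139). It was at 52.5, 185 and 360 FPKM at VILI 6 hours, with replicate 1 near the control values of 44.5 to 46.5. Atf3, a repressor of Toll-like receptor targets, differed by 1.29 and 1.09 (adjusted p = 0.229 and 0.237). Zc3h12a, an RNase that degrades cytokine mRNA, differed by 1.59 at VILI 6 hours (adjusted p = 0.171). Its libraries there were at 7.48, 11.5 and 51.2 FPKM, with the highest value in replicate 3. Socs1, a suppressor of cytokine signalling, was -0.79 at VILI 0 hours (adjusted p = 0.151) and 1.15 between the ventilated groups (adjusted p = 0.180), where Tnip1 was 0.77 (adjusted p = 0.450). Tnip1 was at 14.9, 18.3 and 39.8 FPKM at VILI 6 hours, also highest in replicate 3.

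Of 11 proteins described as endogenous agonists, 4 were higher and 0 lower at VILI 0 hours, 4 higher and 1 lower at VILI 6 hours, and 3 higher and 3 lower between the ventilated groups. The lower gene at VILI 6 hours was Hmgb1, named after its values were seen. It was at 47.6, 51.0 and 57.5 FPKM in control and 43.3, 40.1 and 40.9 at VILI 6 hours. S100a8 and S100a9, which encode calprotectin of neutrophils and also stand in the neutrophil marker list, rose at both times by 4.08 and 4.30, and by 3.84 and 4.31 (adjusted p = 0.0204 and 0.0136, and 0.0247 and 0.0136). Saa3, an acute-phase protein, was measured at 1.08, 2.83 and 0.922 FPKM in control, 0.921, 6.83 and 0.951 at VILI 0 hours, and 16.5, 58.3 and 460 at VILI 6 hours (5.65 against control, adjusted p = 0.0614, and 5.29 between the ventilated groups, adjusted p = 0.206). Hspa1a was 2.41 at VILI 0 hours (adjusted p = 0.110) and -2.35 between the ventilated groups (adjusted p = 0.284), where Hspa1b was -1.95 (adjusted p = 0.348); these heat-shock genes are near-identical copies, so reads may be divided between them in error.

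Of 16 Toll-like receptor target cytokines and enzymes, 14 were tested, with 3 higher and 0 lower at VILI 0 hours, 5 higher and 1 lower at VILI 6 hours, and 4 higher between the ventilated groups. The lower gene at VILI 6 hours was Il12b (-1.55, adjusted p = 0.133), named after its values were seen. It was at 0.519, 0.389 and 0.374 FPKM in control and 0, 0.0503 and 0.278 at VILI 6 hours. Acod1, which makes itaconate in activated macrophages, had listed control values of 0, 0 and 0.0375 FPKM, and was measured at 0.689, 3.13 and 3.78 at VILI 0 hours and 1.08, 2.82 and 15.6 at VILI 6 hours. It rose at VILI 6 hours (5.09, adjusted p = 0.0398), with 4.27 at VILI 0 hours (adjusted p = 0.0757), though such values against levels near 0 depend on the added 0.1 FPKM. Il1b differed by 3.14 at VILI 0 hours (adjusted p = 0.0757). At VILI 6 hours Il1b was at 26.4, 14.0 and 83.4 FPKM, above the control values of 3.27, 4.48 and 4.95. Cxcl2, a neutrophil chemokine, differed by 3.31 and 5.90 (adjusted p = 0.289 and 0.0878) and Il6 by 2.93 at VILI 6 hours (adjusted p = 0.194). Control levels were 0.0463 to 0.122 FPKM for Cxcl2 and 0.138 to 0.277 for Il6, so these differences too depend on the added 0.1 FPKM. Between the ventilated groups Ccl2 was 3.48, Cxcl1 3.33 and Cxcl10 3.23 (adjusted p = 0.144, 0.415 and 0.474). In VILI 6 hours replicate 3, Il6 reached 19.3 FPKM and Cxcl2 150 FPKM, against at most 1.58 and 2.88 in the other libraries of that group. The same library had 44.4 FPKM of Cxcl1 and 59.3 FPKM of Cxcl10, against at most 3.49 and 2.15 in the other two, and both genes overlapped between the ventilated groups. Ifnb1, the interferon gene induced through TLR3 and TLR4, was listed at 0 in all 9 libraries, and Il10 had too low a mean to be tested.

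**Figure D5:**
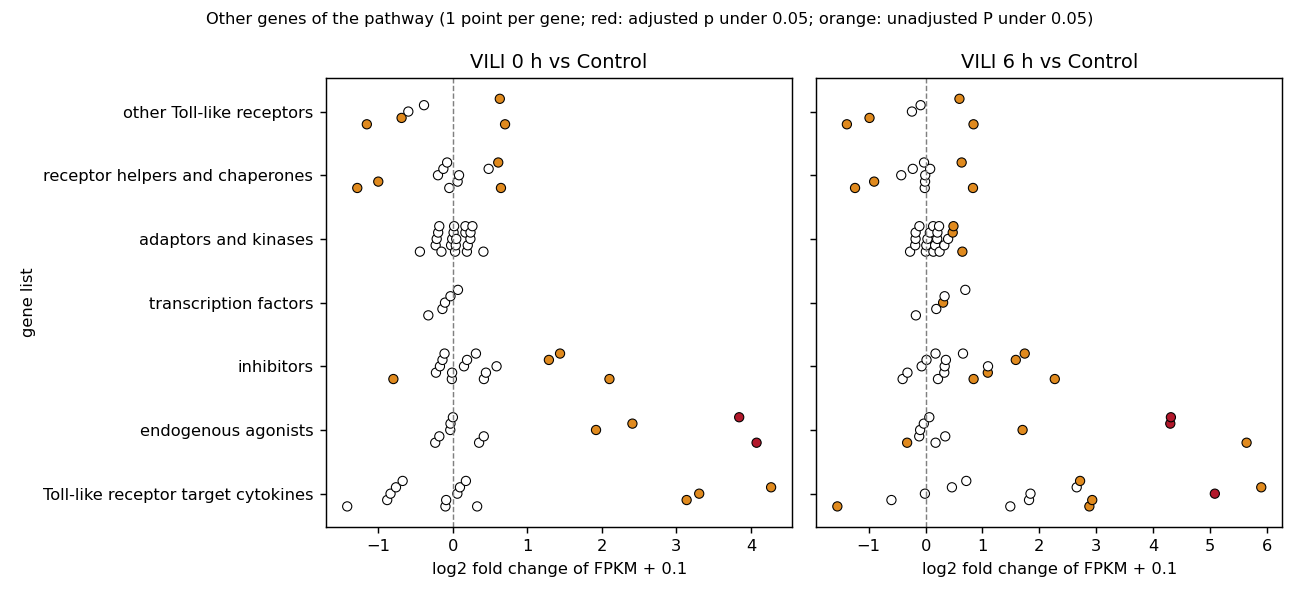
Log2 fold change against control of FPKM + 0.1 (x axis) for each tested gene of the 7 pathway lists (rows) at VILI 0 hours and VILI 6 hours; red marks an adjusted p under 0.05, orange an unadjusted P under 0.05 and white neither. Of the 21 adaptors and kinases, 0 are coloured at VILI 0 hours and 3 are orange, to the right of 0, at VILI 6 hours. The 3 red genes are S100a8 and S100a9 at both times and Acod1 at VILI 6 hours.

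The genes whose log2 levels were most like a member's over the 9 libraries are given by Pearson r as a description, since the libraries share the differences between groups. For Tlr13 these were Slfn1 (r = 0.989), Gm49339 (0.984) and Acod1 (0.983), for Myd88 Fcgr2b (0.983), Pim1 (0.982) and Wfdc17 (0.980), and for Irak3 Selp (0.986), Akap2 (0.983) and Ppp1r15b (0.980). Cd14 was most like Ccl17, Gm20186 and Pard3 (0.983, 0.983 and 0.980), Tlr7 like Pira2, F10 and Naip2 (0.964, 0.934 and 0.925), and Tlr2 like Rab32, Hmox1 and Actr3 (0.954, 0.929 and 0.929). Tlr5 was most like Adam33, Rassf3 and Vapb (0.990, 0.989 and 0.988), Tlr4 like Cox6c, Tomm22 and Ascc1 (0.926, 0.926 and 0.919), Tlr3 like Tdg, Fbxl17 and Atp8b2 (0.934, 0.930 and 0.917), and Ly96 like 4932438A13Rik, March3 and Cip2a (0.913, 0.899 and 0.882). Among the members themselves, Myd88 and Irak3 had the highest r (0.945), then Myd88 and Tlr13 (0.924), whereas Tlr5 and Irak3 had -0.88 and Tlr3 and Tlr4 -0.85. The likenesses were picked from 14108 genes with a mean of at least 1 FPKM, and nothing is drawn from them.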

How the data were processed

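Total RNA of 9 mouse lungs was sequenced, 3 mice per group, with groups taken from the sample records. The authors discarded low-quality reads and those with adapters or poly-N, aligned the rest with TopHat (TopHat2 2.0.9 and Bowtie2 2.0.6 in the submitters' processing notes, build GRCm38), assembled transcripts with Scripture and Cufflinks, and deposited FPKM per transcript from Cuffdiff 2.1.1. The table holds no counts, which left out any count model. The read totals listed by the study were not used here; columns summed to 366360 to 388459 FPKM.

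Gene IDs were named by GENCODE M21 (23503 of 23713 Ensembl IDs matched), and FPKM was summed over the rows of a gene. limma 3.58.1 in R 4.3.3 (lmFit, contrasts.fit, eBayes with a trend) was fitted to log2(FPKM + 0.1) of 19378 genes, and of 37300 rows, with a mean FPKM of at least 0.1, with group as the only factor and Benjamini-Hochberg adjustment over all genes or rows. The procedure was tested on simulated data. All 10 members were named; of each pathway list, the genes with an unadjusted P under 0.05 or, where more than 3 passed in a comparison, the 3 with the largest difference among those with a mean of at least 1 FPKM, and genes listed at 0 throughout. The members and lists were chosen with earlier results of these data known. Replicate numbers do not mark shared animals and paired no samples (correlations of deviations from -0.27 to 0.04). Alternatives were 18: pseudocounts of 0.01 and 1, a mean of at least 1 FPKM, the unfiltered table, centring of libraries on their medians, a fit of the 6 libraries compared alone, eBayes without a trend, a replicate block, the row with the highest mean, and each library left out. Tables and figures were made in Python 3.11.15 with pandas 2.3.3, numpy 2.4.6 and matplotlib 3.10.9.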

Additional observations from a re-analysis of the deposited data

Results flagged for a closer look

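Myd88 and Irak3 differed between the ventilated groups by a test of that difference at the unadjusted threshold. Myd88 was 0.57 higher on the log2 scale at VILI 6 hours than at VILI 0 hours (limma, adjusted p = 0.412; 2 of 3 VILI 6 hours libraries above every VILI 0 hours library), and Irak3 was 0.72 higher (adjusted p = 0.438; 2 of 3 libraries). Neither held after adjustment over all genes. No test for outlying samples was run on these groups of 3 libraries, though each library was left out in turn.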

How the results depend on the processing

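Over 18 alternatives, 483 of 540 values of single members kept their direction and their side of the unadjusted threshold, 34 lost the call, 17 gained it and 6 reversed. The share of all genes or rows called in the same setting is given in parentheses. Against 3 members called at VILI 0 hours (16.2%), there were 5 with only the 6 libraries compared (26.3%), 1 without a trend (15.5%) and 1 to 4 when a library was left out (10.2% to 23.2%). None passed adjustment (0.284%), against 2 with only the 6 libraries (8.24%) and 0 to 1 in leave-one-out (0.00516% to 6.93%). At VILI 6 hours the count of 5 (20.4%) was 3 with the row of highest mean (17.8%) and 4 to 6 in leave-one-out (13.1% to 38.8%). The 1 adjusted member there (Tlr13, 0.702%) became 0 with no filter (0.0294%), only the 6 libraries (0.186%), no trend (0.212%), the replicate block (adjusted p = 0.0702 for Tlr13, 0.222%) or the row of highest mean (0.0571%), and 0 to 4 in leave-one-out (0% to 23.3%). Between the ventilated groups the count of 2 (5.06% higher and 4.94% lower) was 1 with only the 6 libraries (6.24%) and 0 to 6 in leave-one-out (7.26% to 22.4%), and 0 to 1 were adjusted (0% to 1.84%). The highest shares in leave-one-out were those without VILI 6 hours replicate 1. Rows called at VILI 0 hours (2, 11.0%) were 1 with a pseudocount of 1 (11.1%), 4 with no filter (8.38%), 4 after median-centring (11.0%), 6 with only the 6 libraries (15.9%) and 1 to 4 in leave-one-out (7.54% to 14.5%). At VILI 6 hours (6, 13.2%) they were 3 to 8 in leave-one-out (9.08% to 24.3%), and between the ventilated groups (4, 7.40%) they were 2 with a mean of at least 1 FPKM (8.35%), 2 with only the 6 libraries (5.15%) and 0 to 6 in leave-one-out (5.65% to 14.3%). No row passed adjustment, against 1 at VILI 0 hours with only the 6 libraries (0.981%) and 4 at VILI 6 hours without VILI 6 hours replicate 1 (5.60%). With the row of highest mean, Tlr5 at VILI 0 hours (0.00050) and Tlr3 between the ventilated groups (-0.15, against 0.15 in the main fit) reversed. Without VILI 6 hours replicate 3, Ly96 at VILI 6 hours (-0.00014, leave-one-out range to 0.27) and, between the ventilated groups, Tlr2 (-0.092, range to 0.90), Tlr5 (0.068, range from -0.58) and Tlr13 (-0.015, range to 0.60) reversed. The replicate block also ended the call of Tlr4 at VILI 0 hours and no other member's; the numbers pair no mice. The cause of these changes was not tested. Median-centring moved the share of higher genes among all calls from 42.1% to 51.8% at VILI 0 hours, from 40.1% to 50.8% at VILI 6 hours and from 50.6% to 51.5% between the ventilated groups. The number of mice limits the precision.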
